A study of Mus musculus with 12 samples.

Results

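The genes of fatty acid oxidation and ketone body formation were followed in whole mouse liver across genotype and ethanol feeding. They were chosen by gene symbol from a fixed list of 36, and all 36 were found among the 24532 genes of the expression table. By the organelle in which their products are known to act, 20 were taken as mitochondrial, 11 as peroxisomal and 5 as other. The mice were male, of C57BL/6 background, and carried *Ahr* fl/fl alleles in every group. *Ahr* HKO mice also carried *Alb-Cre*, a recombinase driven by the albumin promoter and so directed at hepatocytes, and their littermates without Cre served as WT. *Ahr* encodes the aryl hydrocarbon receptor, a transcription factor activated by small ligands. Mice aged 10 to 12 weeks were given either a Lieber-DeCarli liquid diet with ethanol at 5% of its volume and 36% of its calories, or the control liquid diet, for 5 weeks. RNA of 3 livers was sequenced in each of the 4 groups, which are called WT control, WT ethanol, HKO control and HKO ethanol. The material was bulk liver RNA with all cell types of the organ, so fewer cells of a type and less RNA per cell cannot be told apart.

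Fatty acids are activated to acyl-CoA, carried into mitochondria as carnitine esters and shortened there by a spiral of dehydrogenation, hydration, dehydrogenation and thiolysis. Electrons from the dehydrogenases pass through the electron transfer flavoproteins to the respiratory chain, and in liver much of the acetyl-CoA becomes ketone bodies. Peroxisomes shorten very long and branched acyl chains with their own set of enzymes and pass the products on as carnitine esters. Many genes of both pathways are targets of PPARα, the nuclear receptor that senses fatty acids in hepatocytes, and ethanol feeding is known for causing fat accumulation in liver.

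The organelle of each member came from its known function, and the ends of the coding sequences were then read. Knowledge of the organelle may itself draw on such signals, so the counts below describe the split and do not test it. Many peroxisomal enzymes carry a signal in the last 3 residues. The pattern searched here was a codon for serine, alanine or cysteine, then lysine, arginine or histidine, then leucine or methionine, before the stop codon. It was present in 8 of 11 peroxisomal members, in 0 of 20 mitochondrial members and in 1 of 5 others. The last 30 coding bases of members that differ in this respect are given in mouse build GRCm38 from the GENCODE transcripts, 5′ to 3′, with the last 3 sense codons in capitals.
*Ehhadh* (chr16:21762084-21762113, minus strand): ttggcaggaccccatagcAGCAAACTGtga
*Decr2* (chr17:26082876-26082905, minus strand): gagtttgaatccttctctGCTAAGCTGtag
*Eci3* (chr13:34946929-34946958, minus strand): ctgttcagaaaggcaaagGCTAAGCTAtga
*Acot3* (chr12:84058997-84059026, plus strand): aaaaagaagacaatcccaGCAAAACTGtga
*Acot4* (chr12:84043767-84043796, plus strand): acccacagcagagcctccTGTAGACTGtag
*Acot2* (chr12:83993051-83993080, plus strand): ttccacaaacagttgggtAGCAAGAGTtag
*Acot1* (chr12:84017350-84017379, plus strand): gagtgtttgcatgtgtctCCTAAAATAtaa
*Crat* (chr2:30402578-30402607, minus strand): ctccagaaccaccccaggGCCAAGCTCtga
*Acaa1b* (chr9:119148338-119148367, minus strand): gctgcggtctttgaatacCCTGGGAACtga
*Ehhadh*, *Decr2*, *Eci3*, *Acot3* and *Acot4* end in the pattern, and so does *Crat*, a carnitine acetyltransferase found in both organelles. *Acot2*, whose product acts in mitochondria, and *Acot1*, whose product is cytosolic, do not. The 3 peroxisomal members without it were *Acaa1a* and *Acaa1b*, thiolases known to use a signal near the other end of the protein, and *Pex11a*, a membrane protein.

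Each library held between 46306518 and 74336255 reads on genes, and all 36 members were among the 14038 genes that passed the filter on low counts. Levels are given in CPM, counts scaled to the library total after TMM normalization, and called genes are those with adjusted *P* below 0.05 in the quasi-likelihood test of edgeR. *Ahr* had 16.6 to 20.1 CPM in WT control, 20.8 to 30.5 CPM in WT ethanol, 41.3 to 65.5 CPM in HKO control and 24.7 to 41.8 CPM in HKO ethanol livers, so the targeted gene was higher, not lower, in libraries labelled *Ahr* HKO. The deletion removes exon 2, and counts per gene do not separate exons, so this neither checks the labels nor contradicts the deletion. The 8 hepatocyte markers were detected in every library, with a summed level of 54575 to 72579 FPKM. Single hepatocyte markers moved with the groups. *Apoa1* was lower on ethanol in WT (log2 FC -1.08), *Hnf4a* (0.97) and *Fgb* (1.36) were higher in HKO against WT on the control diet, and on ethanol in HKO *Fgb* was lower (-2.04) and *Ttr* higher (0.81), all called by edgeR. Their part in the member values was not tested.

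In WT control livers the members spanned 0 to 578 FPKM, the unit that also divides by gene length and allows genes to be compared. The highest were *Acaa2*, the last thiolase of the mitochondrial spiral, at 578 ± 34.7 FPKM (SD, n = 3), and the peroxisomal thiolase *Acaa1b* at 457 ± 86.7 FPKM. The lowest were *Eci3* at 0, *Acot3* at 0.484 ± 0.123 and *Pdk4* at 0.811 ± 0.0323 FPKM. For 21 of 36 members the highest and the lowest of the 4 group means of CPM lay within 1.5-fold. These were 16 of 20 mitochondrial members and 4 of 11 peroxisomal ones. HKO control was the group with the lowest mean for 25 members, and for 1 member, *Pex11a*, it was the highest. These counts were taken over the members only. Without the same shares over all tested genes, they cannot be read as particular to the members.

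Some members share sequence, and the authors' counting of shared reads is not described in the sources used here. Of 36 members, 26 had no stretch of 100 bases, the read length, in common with a transcript of another gene in GENCODE. More than 5% of such stretches were shared for 7 members: *Etfb* (65.2%), *Hadhb* (53.2%), *Acaa1b* (22.6%), *Acot1* (21.9%), *Acaa1a* (21.6%), *Acot2* (17.1%) and *Acot3* (14.3%). *Acaa1a* and *Acaa1b* were 96.5% identical over their coding bases, and *Acot1* and *Acot2* 95.5%. Values of single members of these pairs are uncertain to that extent, whereas *Pdk4*, *Acsl1*, *Cpt1a* and *Decr2* shared no such stretch.

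**Figure D1:**
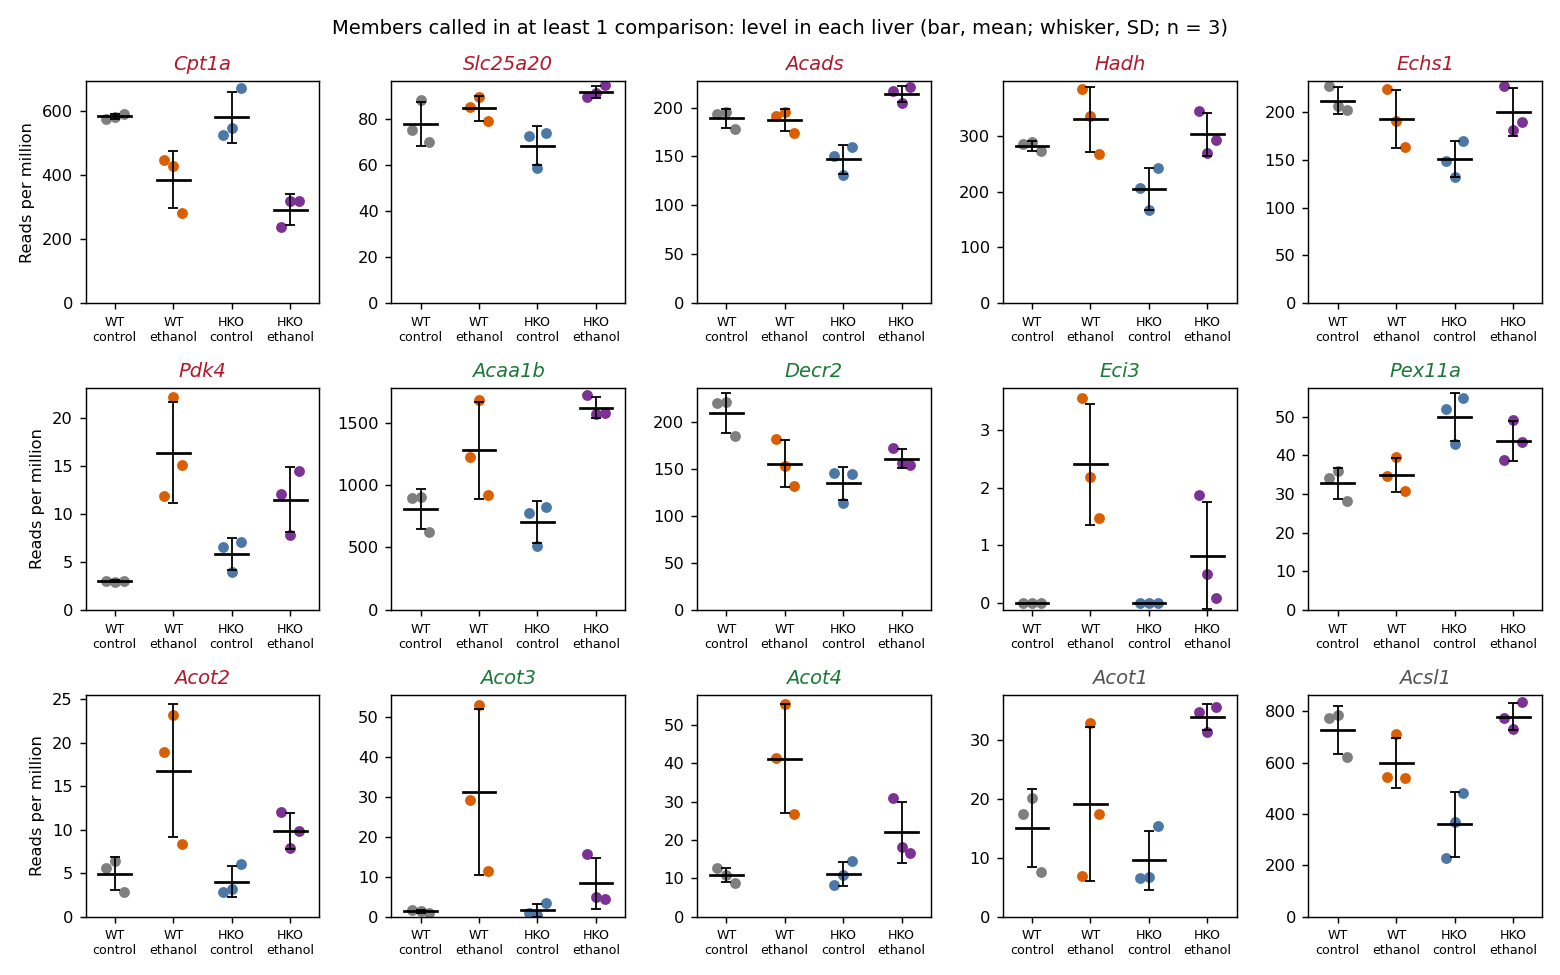
Level in CPM (vertical axis, linear) in each of the 12 livers for the 15 members called in at least 1 comparison, with the mean as a bar and the SD as a whisker (n = 3); titles are red for mitochondrial, green for peroxisomal and grey for other members. *Eci3* is at 0 in all 6 control livers, and *Acsl1* is lowest in the HKO control livers, at 227 to 481.

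Ethanol feeding in WT mice raised 5 members and lowered none. The 5 were *Pdk4*, *Eci3* and the acyl-CoA thioesterases *Acot2*, *Acot3* and *Acot4*, which release free fatty acids from CoA. *Pdk4* is the kinase that shuts pyruvate dehydrogenase and so spares glucose while fat is burned, and *Eci3* is a peroxisomal enoyl-CoA isomerase. Called higher were thus 5 of 36 members (13.9%) against 4.84% of all tested genes, and called lower were 0 of 36 against 4.63%. The median log2 FC of the members was 0.12, beside 0.03 over all tested genes. None of the 11 enzymes of the mitochondrial spiral was called, and their log2 FCs lay between -0.22 and 0.32.

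*Pdk4* was at 3.01, 2.87 and 3.05 CPM in the WT control livers and at 11.9, 22.2 and 15.1 CPM in the WT ethanol livers. All ethanol livers were above all control livers, and *Pdk4* rose by 2.48 on the log2 scale (SE 0.234, adjusted *P* = 0.00297 by edgeR). *Eci3* had no read in any control liver of either genotype and 188, 138 and 93 reads in the WT ethanol livers, or 3.55, 2.19 and 1.48 CPM. With 3 reads per library as the floor, its mean was at least 40.1-fold higher on ethanol (adjusted *P* = 0.00613 by edgeR). *Eci3* passed the filter on low counts only through ethanol livers, where it was high, which limits its calls and the counts that include it. It dropped out when at least 10 counts were asked of every library. That fit called 4 of 35 members, beside 11.3% of all tested genes in either direction.

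The thioesterases *Acot2*, *Acot1*, *Acot4* and *Acot3* lie side by side in this order on chromosome 12, within 72.5 kb (chr12:83987861-84060400), all on the plus strand. *Acot3*, a peroxisomal thioesterase, went from 1.68, 1.37 and 1.02 CPM to 29.3, 53.0 and 11.4 CPM, the largest change with a fitted error (log2 FC 4.54, SE 0.535, adjusted *P* = 0.00674 by edgeR, and a log2 FC of 3.90 without WT ethanol liver 2). *Acot4*, the peroxisomal enzyme for dicarboxylic acyl-CoA, went from 12.7, 11 and 8.91 CPM to 41.3, 55.5 and 26.8 CPM (log2 FC 1.94, SE 0.267, adjusted *P* = 0.0101 by edgeR). *Acot2*, the mitochondrial member, went from 5.59, 6.46 and 2.86 CPM to 19.0, 23.2 and 8.36 CPM (log2 FC 1.77, SE 0.422, adjusted *P* = 0.0475 by edgeR). In all of *Acot2*, *Acot3* and *Acot4* the WT ethanol liver 2 was the highest and liver 3 the lowest, and the control and ethanol livers did not overlap. *Acot1*, which lies between them, overlapped, with 17.4, 20.2 and 7.56 CPM on the control diet and 6.85, 32.9 and 17.5 CPM on ethanol (log2 FC 0.37, adjusted *P* = 0.728 by edgeR). The call of *Acot2* held without WT ethanol liver 3 and was lost without any other single liver, with adjusted *P* values of 0.0924 to 0.127 by edgeR, and it was also lost without the filter on low counts (0.0556) and by limma on quantile-normalized log2(FPKM + 1) (log2 FC 1.37, adjusted *P* = 0.0672).

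Sequences before the start sites are shown for *Acot2*, *Acot4*, *Acot3* and *Pdk4*, the members called higher on ethanol in WT other than *Eci3*. They are from RefSeq promoters of GRCm38.p6, 5′ to 3′ on the strand of the gene. They end at the base before the start of transcription of that promoter, or for *Pdk4* before the start of a longer GENCODE transcript. The annotated span of *Acot4* starts earlier, at base 84037254, so its printed stretch lies within the annotated gene. Capitals mark AGGTCA, the hexamer bound by many nuclear receptors, and GCGTG, the core of the AhR response element, on either strand.
*Acot2* (chr12:83987611-83987860, plus strand): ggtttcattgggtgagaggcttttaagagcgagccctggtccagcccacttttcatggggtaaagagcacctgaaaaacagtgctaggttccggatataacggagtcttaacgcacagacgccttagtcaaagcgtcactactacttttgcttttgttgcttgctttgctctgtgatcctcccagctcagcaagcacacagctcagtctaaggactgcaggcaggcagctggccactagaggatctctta
*Acot4* (chr12:84038129-84038378, plus strand): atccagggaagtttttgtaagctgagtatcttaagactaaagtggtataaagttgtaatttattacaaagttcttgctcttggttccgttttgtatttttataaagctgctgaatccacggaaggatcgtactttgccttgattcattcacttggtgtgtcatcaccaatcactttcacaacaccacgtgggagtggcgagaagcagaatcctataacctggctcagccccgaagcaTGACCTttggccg
*Acot3* (chr12:84051894-84052143, plus strand): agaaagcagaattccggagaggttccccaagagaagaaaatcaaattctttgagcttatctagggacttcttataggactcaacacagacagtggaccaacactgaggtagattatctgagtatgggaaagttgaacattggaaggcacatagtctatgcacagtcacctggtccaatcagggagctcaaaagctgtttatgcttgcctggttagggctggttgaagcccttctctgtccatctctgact
*Pdk4* (chr6:5496310-5496528, minus strand): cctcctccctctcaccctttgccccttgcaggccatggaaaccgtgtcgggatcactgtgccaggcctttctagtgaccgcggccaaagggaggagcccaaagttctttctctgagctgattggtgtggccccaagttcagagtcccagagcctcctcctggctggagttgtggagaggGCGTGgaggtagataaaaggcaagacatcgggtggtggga
*Acot4* holds the hexamer from base -13 and *Pdk4* the AhR core from base -71, counted from the start of transcription of the promoter used. *Acot3* holds the hexamer after its start, from base 19, and *Acot2* holds neither. *Eci3*, whose sequence is not printed, holds the AhR core from base -146. The annotated span of *Eci3* reaches base 34963988 on the minus strand, so this core lies within the annotated gene. Over the windows from 250 bases before to 50 bases after the start, AGGTCA was in 16.3% of all 32851 promoters and in those of 6 of the 31 members that had one (19.4%). The repeat AGGTCANAGGTCA, which contains the hexamer, was in 0.0396% of promoters and in no member's. GCGTG was in 32.4% of all promoters and in those of 16 of 31 members (51.6%). The shares over all promoters count single promoters. Those of the members count genes with a match in any of their 34 promoters, so these are unlike measures. A match describes the letters only.

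**Figure D2:**
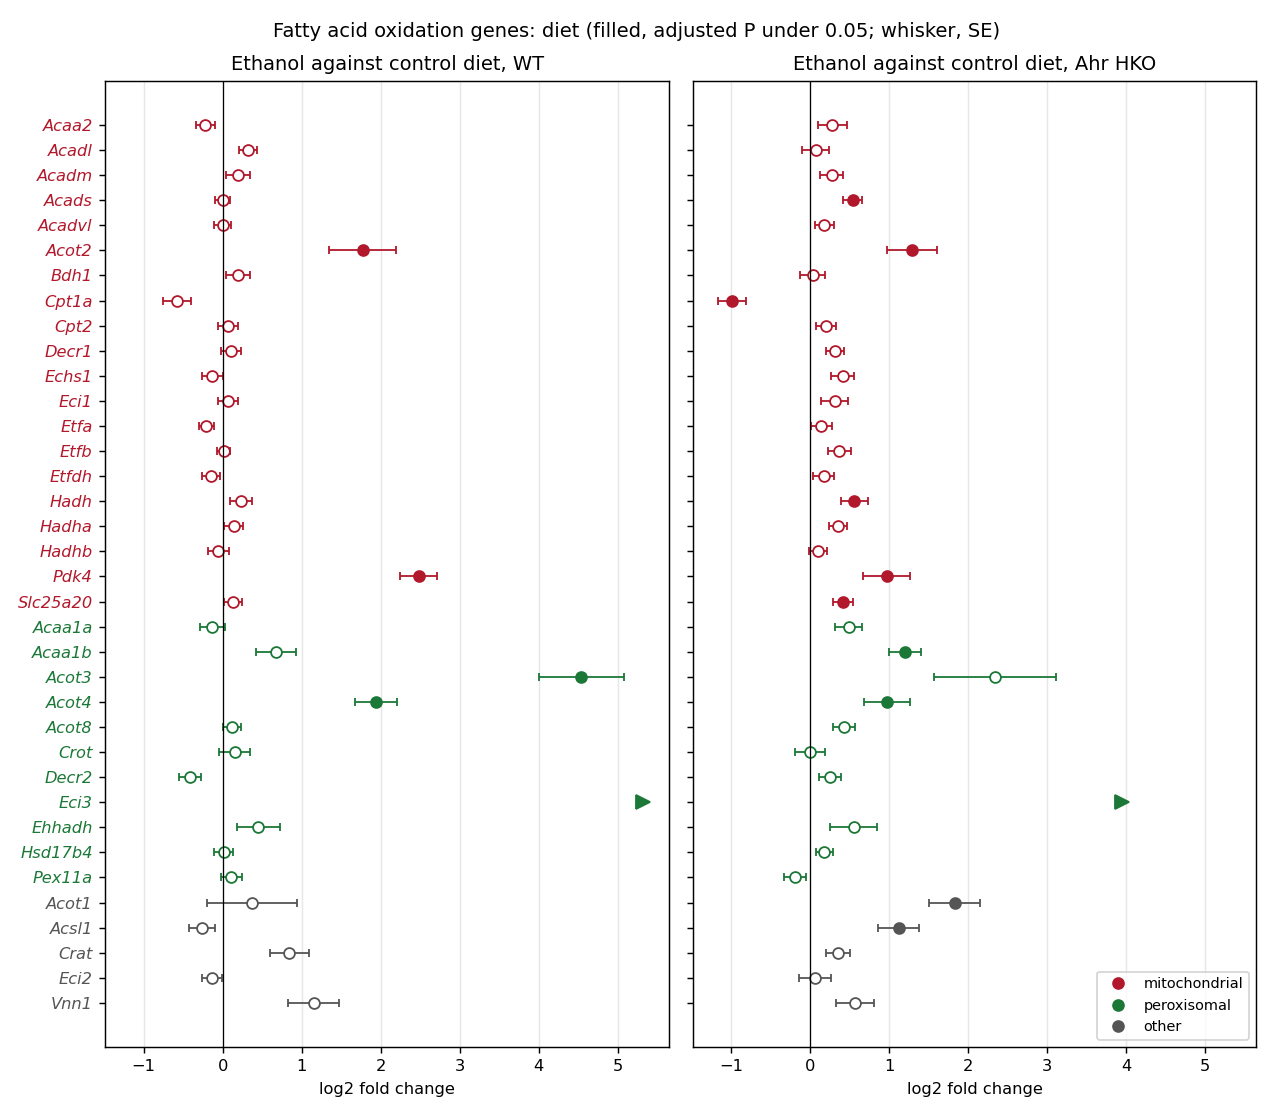
Log2 fold change of ethanol against control diet with its SE (horizontal axis) for each of the 36 members in WT (left) and *Ahr* HKO (right); filled symbols passed an adjusted *P* value of 0.05, and the arrowheads of *Eci3* mark a lower bound because its control livers had no reads. *Pdk4*, *Eci3*, *Acot2* and *Acot4* are filled in both panels, and *Cpt1a* is left of 0 in both but filled in *Ahr* HKO only.

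Of the members not called in WT, *Vnn1* and *Crat* had the largest differences. *Vnn1*, a pantetheinase of the CoA cycle, was at 41.6, 49.2 and 20 CPM on the control diet and 70.8, 103 and 69.7 CPM on ethanol (log2 FC 1.15, SE 0.327, adjusted *P* = 0.0749 by edgeR). *Crat* was at 27.2, 50.3 and 26.9 CPM and then at 68.1, 60.1 and 56.6 CPM (log2 FC 0.84, SE 0.246, adjusted *P* = 0.0805 by edgeR). Without WT control liver 2, *Crat* passed with a log2 FC of 1.20 (adjusted *P* = 0.0116 by edgeR). *Cpt1a*, the carnitine palmitoyltransferase that gates entry into mitochondria, was at 575, 582 and 591 CPM and then at 448, 428 and 283 CPM (log2 FC -0.58, SE 0.178, adjusted *P* = 0.0895 by edgeR). The thresholds of the study for this comparison were adjusted *P* below 0.25 together with a change of over 1.5-fold. Applied to the edgeR fit, 8 members passed, all higher, where 14.1% of all tested genes passed in either direction. These were the same 5 with *Crat*, *Vnn1* and *Acaa1b*. Here and below only the thresholds are those of the study. It used its own tests on normalized FPKM values, so these are not its gene lists. DESeq2 called 10 members, adding *Acaa1b*, *Crat* and *Vnn1* as higher and *Cpt1a* and *Decr2* as lower, and called 16.6% of all tested genes. Of 5 stellate cell markers, 2 were called higher by edgeR in the same comparison, beside 4.84% of all tested genes. Their summed level was 61.6 to 79.2 FPKM in WT control and 101 to 130 FPKM in WT ethanol livers, and none was at 0. Their part in the member values was not tested.

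On the control diet, livers labelled *Ahr* HKO had 2 members higher and 3 lower than WT. *Pdk4* and *Pex11a* were higher. *Acsl1*, the acyl-CoA synthetase that activates long-chain fatty acids, *Decr2*, the peroxisomal dienoyl-CoA reductase, and *Echs1*, the short-chain hydratase of the mitochondrial spiral, were lower. The counts of 2 of 36 higher (5.56%) and 3 of 36 lower (8.33%) stood beside 15.4% and 14.2% of all tested genes. The median log2 FC was -0.18 over the members and -0.00 over all tested genes. A negative log2 FC was found for 10 of the 11 spiral enzymes and for 7025 of 14038 tested genes.

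*Acsl1* was at 772, 787 and 620 CPM in WT control and at 227, 369 and 481 CPM in HKO control livers. The groups did not overlap, and *Acsl1* fell by 1.01 on the log2 scale (SE 0.265, adjusted *P* = 0.0272 by edgeR). *Decr2* was at 221, 222 and 185 CPM and then at 146, 114 and 145 CPM (log2 FC -0.63, SE 0.138, adjusted *P* = 0.0143 by edgeR). *Echs1* was at 228, 207 and 202 CPM and then at 149, 132 and 170 CPM (log2 FC -0.49, SE 0.126, adjusted *P* = 0.0247 by edgeR). Each of these enzymes was lower in every HKO control liver than in any WT control liver. *Pex11a*, which elongates and divides peroxisomes, was at 34.1, 36 and 28.2 CPM and then at 51.9, 43.0 and 54.9 CPM (log2 FC 0.61, SE 0.136, adjusted *P* = 0.0152 by edgeR). *Pdk4* was at 6.55, 3.91 and 7.08 CPM in HKO control livers (log2 FC 0.98, SE 0.234, adjusted *P* = 0.0199 by edgeR), above the WT control livers and below the WT ethanol livers.

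The call of *Pex11a* held when any single liver was left out, and that of *Decr2* was lost without WT control liver 2 (adjusted *P* = 0.0520 by edgeR). *Acsl1* was lost without WT control liver 1 or 2 or HKO control liver 2, with adjusted *P* values of 0.0657 to 0.0796, *Pdk4* without any WT control liver or HKO control liver 1 (0.0550 to 0.0674), and *Echs1* without any single liver but HKO control liver 3 (0.0505 to 0.0760), all by edgeR. Without HKO control liver 3, *Acads* (log2 FC -0.43, adjusted *P* = 0.0374), *Hadh* (-0.60, 0.0198) and *Ehhadh* (-0.72, 0.0298) passed as lower in the same test. With the thresholds of the study, adjusted *P* below 0.05 together with a change of over 1.5-fold, 4 members passed, *Acsl1*, *Pex11a*, *Decr2* and *Pdk4*, where 19.9% of all tested genes did.

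In these HKO control livers *Fabp4*, a fatty acid binding protein of adipocytes and macrophages, was at 35.5 to 50.4 CPM against 6.85 to 11.6 CPM in WT control. Both tested adipocyte markers, *Fabp4* and *Cfd*, were called higher. *Cfd* was uneven, at 34.7, 0.512 and 2.26 CPM in HKO control against 0.546, 0.607 and 0.266 CPM in WT control. Its HKO control liver 2 lay within the WT control range. The summed level of all 5 adipocyte markers was 52.5 to 109 FPKM against 10.7 to 17.4 FPKM, while the defining *Plin1* and *Lep* had no read in any library and *Adipoq* at most 0.0653 CPM. The clock gene *Dbp* was at 41.1, 12.5 and 17.5 CPM against 83.4, 96.1 and 121 CPM in WT control. Of 6 clock genes 2 were called, both lower, beside 14.2% of all tested genes called lower. The part of these differences in the member values was not tested.

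On the ethanol diet no member differed between the genotypes at an adjusted *P* value under 0.05 by edgeR, where 0.712% of all tested genes were called higher and 0.392% lower. At an unadjusted *P* value under 0.05, 9 of 36 members (25%) and 21% of all tested genes passed. DESeq2 called 4 members, with *Acaa2* (log2 FC 0.41) and *Etfb* (0.21) higher and *Crat* (-0.53) and *Crot* (-0.56) lower in HKO, and limma called 0 on log2(FPKM + 1) and 2 on log2(FPKM + 0.1). DESeq2 called 10.8% of all tested genes here and the latter fit 3.4%. The median log2 FC of the members was 0.03, beside -0.01 over all tested genes. By the study's threshold for this pair, unadjusted *P* below 0.05 together with a change of over 2-fold, 6.13% of tested genes passed and 1 member did, *Acot3*.

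*Acot3* was at 29.3, 53.0 and 11.4 CPM in WT ethanol and at 15.6, 4.91 and 4.46 CPM in HKO ethanol livers (log2 FC -1.91, SE 0.647, adjusted *P* = 0.172 by edgeR). *Acot4* was at 31.0, 18.2 and 16.7 CPM in HKO ethanol livers (log2 FC -0.91, SE 0.319, adjusted *P* = 0.176), *Acot2* at 12, 7.86 and 9.83 CPM (-0.77, SE 0.357, adjusted *P* = 0.269) and *Eci3* at 1.87, 0.509 and 0.0902 CPM (-1.51, SE 0.822, adjusted *P* = 0.336), all by edgeR. For each of *Acot2*, *Acot3*, *Acot4* and *Eci3* the ranges of WT ethanol and HKO ethanol livers overlapped. *Crot*, the peroxisomal carnitine octanoyltransferase that exports shortened chains, was at 780, 629 and 556 CPM in WT ethanol and 521, 400 and 418 CPM in HKO ethanol (log2 FC -0.55, SE 0.160, adjusted *P* = 0.126 by edgeR), and did not overlap.

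In *Ahr* HKO mice ethanol feeding raised 10 members and lowered 1. The 10 were *Slc25a20*, the carnitine-acylcarnitine carrier, the spiral enzymes *Acads* and *Hadh*, *Pdk4*, *Acaa1b*, *Eci3*, the thioesterases *Acot1*, *Acot2* and *Acot4*, and *Acsl1*. *Cpt1a* fell. Called higher were 10 of 36 (27.8%) against 14.9% of all tested genes, and called lower 1 of 36 (2.78%) against 15.9%. In either direction, 30.6% of members and 30.8% of all tested genes were called. The median log2 FC of the members was 0.35, beside -0.02 over all tested genes. A positive log2 FC was found for 34 of 36 members and for 6841 of 14038 tested genes. *Pdk4*, *Eci3*, *Acot2* and *Acot4* were called in both genotypes, which is 4 of the 5 called higher in WT and 4 of the 10 in HKO.

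*Cpt1a* was at 525, 547 and 672 CPM in HKO control and at 238, 319 and 320 CPM in HKO ethanol livers, without overlap (log2 FC -0.99, SE 0.171, adjusted *P* = 0.00722 by edgeR). *Acaa1b* was at 778, 508 and 825 CPM and then at 1718, 1565 and 1574 CPM (log2 FC 1.20, SE 0.205, adjusted *P* = 0.00723 by edgeR). *Acot1* was at 6.60, 6.71 and 15.4 CPM and then at 34.8, 31.5 and 35.7 CPM (log2 FC 1.83, SE 0.326, adjusted *P* = 0.00853 by edgeR). The calls of *Cpt1a*, *Acaa1b* and *Acot1* held when any single liver was left out. *Acsl1* was at 227, 369 and 481 CPM and then at 773, 731 and 834 CPM (log2 FC 1.12, SE 0.257, adjusted *P* = 0.0183 by edgeR), so the HKO ethanol livers lay in the range of the WT control livers or above it. *Acads*, the short-chain acyl-CoA dehydrogenase, was at 151, 131 and 160 CPM and then at 217, 205 and 221 CPM (log2 FC 0.54, SE 0.120, adjusted *P* = 0.0159 by edgeR).

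*Pdk4* went from 6.55, 3.91 and 7.08 CPM to 12.1, 7.78 and 14.5 CPM (log2 FC 0.97, SE 0.296, adjusted *P* = 0.0457 by edgeR). *Acot2* went from 2.86, 3.21 and 6.09 CPM to 12, 7.86 and 9.83 CPM (log2 FC 1.29, SE 0.312, adjusted *P* = 0.0220 by edgeR), and *Acot4* from 8.31, 10.8 and 14.5 CPM to 31.0, 18.2 and 16.7 CPM (0.97, SE 0.288, adjusted *P* = 0.0414). *Eci3*, with no read in HKO control livers, had 132, 33 and 4 reads in the HKO ethanol livers, at least 15.4-fold higher on the mean (adjusted *P* = 0.0309 by edgeR). Its HKO ethanol liver 1 held most of these reads. *Slc25a20* went from 72.4, 58.5 and 73.8 CPM to 89.4, 91.1 and 94.5 CPM (log2 FC 0.42, SE 0.125, adjusted *P* = 0.0395 by edgeR), and *Hadh* from 207, 167 and 242 CPM to 346, 270 and 294 CPM (0.56, SE 0.175, adjusted *P* = 0.0477). All of these groups were apart, with every ethanol liver above every control liver.

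Several of these calls were lost without a single liver, while the log2 FC kept its sign. Over the fits that left out a liver it was 0.32 to 0.49 for *Slc25a20*, 0.46 to 0.61 for *Acads*, 0.43 to 0.71 for *Hadh*, 0.74 to 1.19 for *Pdk4*, 0.87 to 1.40 for *Acsl1*, 1.09 to 1.72 for *Acot2* and 0.64 to 1.21 for *Acot4*. *Acads* was lost without HKO ethanol liver 3 (adjusted *P* = 0.0537) and *Acsl1* without that liver (0.0577) or HKO control liver 2 (0.0537), by edgeR. *Slc25a20* and *Hadh* held only without HKO control liver 3 (otherwise 0.0631 to 0.128), *Pdk4* only without HKO ethanol liver 2 (otherwise 0.0505 to 0.129) and *Eci3* only without HKO ethanol liver 3 (otherwise 0.0526 to 0.0679). *Acot2* was lost without HKO control liver 1 or 2 or HKO ethanol liver 1 or 3 (0.0567 to 0.0710), and *Acot4* without HKO control liver 1 or 2 or HKO ethanol liver 1 or 2 (0.0575 to 0.111). Without HKO control liver 3, *Acot3*, *Echs1*, *Ehhadh*, *Etfb* and *Hadha* passed as higher (adjusted *P* = 0.0180 to 0.0478), and without HKO control liver 1 *Acot8* (0.0259) and *Vnn1* (0.0330) did. A single fit of all 12 libraries called 18 members, and so did DESeq2, both adding the same 7, *Acaa1a*, *Acot3*, *Acot8*, *Decr1*, *Echs1*, *Etfb* and *Hadha*, all higher. Over all tested genes these fits called 36.3% and 36.6%.

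Markers of other cells moved with this comparison. All 6 macrophage markers were called lower on ethanol in HKO, with a summed level of 74.5 to 231 FPKM in HKO control and 53.3 to 61.9 FPKM in HKO ethanol livers, and none was at 0. Of 4 endothelial markers, 2 were called lower. Over all tested genes 15.9% were called lower. Of the 6 clock genes 3 were called higher, beside 14.9% of all tested genes, and *Dbp* was at 33.9, 179 and 141 CPM in HKO ethanol livers. *Fabp4* fell back to 7.05 to 10.1 CPM. Their part in the member values was not tested.

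The interaction asks whether the diet effect differed between genotypes, with all 12 livers in the fit. It was called for *Acads*, *Decr2* and *Acsl1*, whose diet effect was higher in HKO, and for *Pdk4*, whose diet effect was smaller there. That is 3 of 36 higher (8.33%) and 1 of 36 lower (2.78%), where 11.2% and 11.1% of all tested genes were called. *Acsl1* had log2 FCs of -0.26 in WT and 1.12 in HKO (interaction 1.40, SE 0.322, adjusted *P* = 0.0119 by edgeR). *Acads* had -0.00 in WT and 0.54 in HKO (interaction 0.56, SE 0.139, adjusted *P* = 0.0165). *Decr2* had -0.42 and 0.25 (interaction 0.68, SE 0.196, adjusted *P* = 0.0294), and *Pdk4* had 2.48 and 0.97 (interaction -1.49, SE 0.403, adjusted *P* = 0.0234), all by edgeR. The WT control livers enter both the diet comparison in WT and the genotype comparison on the control diet. The HKO control livers enter the genotype comparison on the control diet, the diet comparison in HKO and the interaction, so these values are not independent of each other.

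For *Acads* and *Acsl1* the interaction held when any single liver was left out, but that of *Acads* was lost by limma on log2(FPKM + 1) (0.32, adjusted *P* = 0.0714), as was that of *Decr2* (0.45, 0.0697), and both were lost with a pseudocount of 0.1. That of *Pdk4* was lost by limma on quantile-normalized values (-0.90, adjusted *P* = 0.0565). *Pdk4* was lost without WT control liver 2, WT ethanol liver 2 or HKO control liver 1 (adjusted *P* = 0.0518 to 0.0574), and *Decr2* without WT control liver 1 or 2, WT ethanol liver 2 or 3, HKO control liver 2 or HKO ethanol liver 1 (0.0540 to 0.0679), by edgeR. Without HKO control liver 3, 8 members were called, with *Acaa2*, *Echs1*, *Etfa* and *Etfb* added as higher. *Echs1* also passed without WT ethanol liver 1 (0.67, adjusted *P* = 0.0338 by edgeR), *Crat* without WT control liver 2 (-0.84, 0.0216) and *Acot4* without HKO ethanol liver 1 (-1.28, 0.0499). *Acot1* (interaction 1.49, SE 0.727, adjusted *P* = 0.165) and *Acot3* (-2.17, SE 1.040, adjusted *P* = 0.159) did not pass by edgeR, and the value of *Acot3* was -0.99 without HKO control liver 3 and -3.01 without HKO ethanol liver 1.

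**Figure D3:**
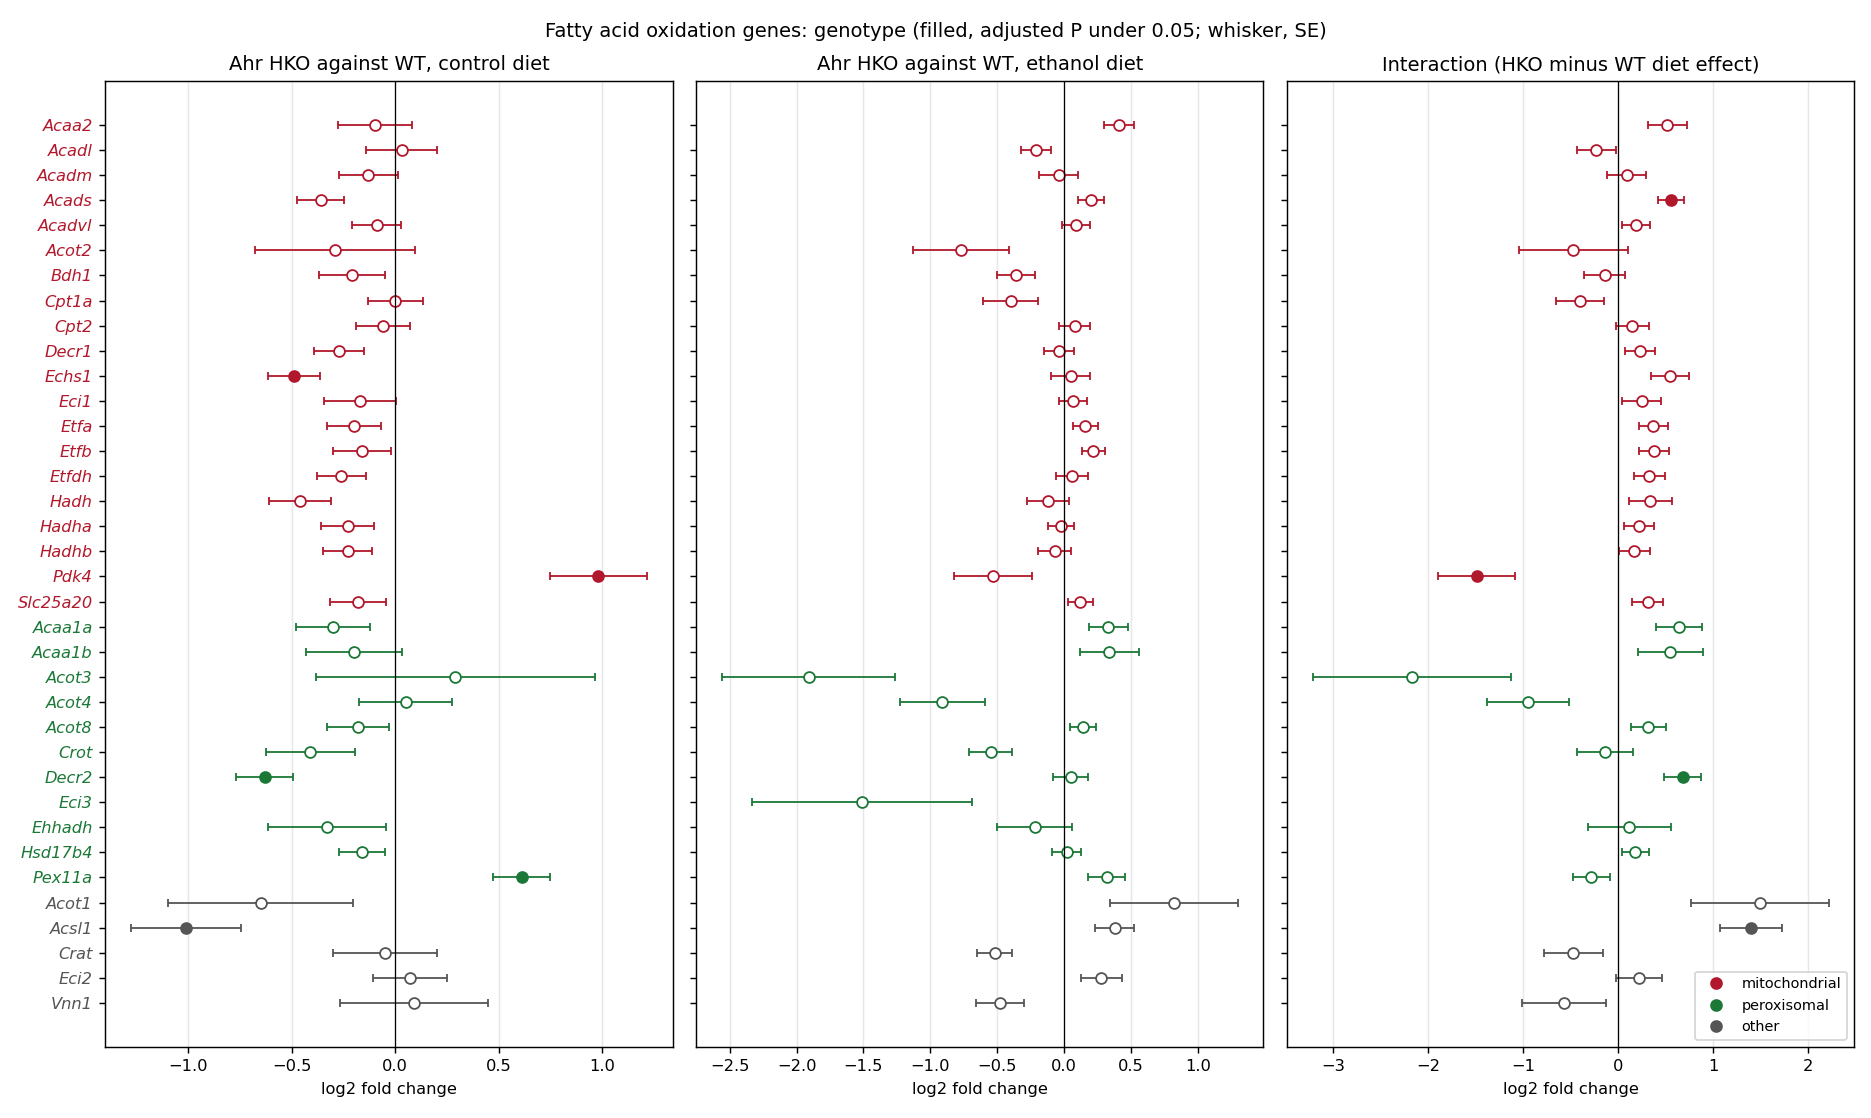
Log2 fold change with its SE (horizontal axis, a range of its own in each panel) of *Ahr* HKO against WT on the control diet (left), on the ethanol diet (middle), and the interaction of genotype and diet (right) for the 36 members; filled symbols passed an adjusted *P* value of 0.05. *Eci3* is not drawn left and right, where control livers without reads leave no SE, no symbol is filled in the middle panel, and *Acsl1* is at -1.01 on the left and 1.40 on the right.

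Mitochondrial and peroxisomal members were set side by side by their median log2 FC. On ethanol in WT the median was 0.07 over the 20 mitochondrial and 0.15 over the 11 peroxisomal members, with 2 (10%) and 3 (27.3%) of them called, beside 9.47% of all tested genes in either direction. On ethanol in HKO it was 0.30 and 0.49, with 6 (30%) and 3 (27.3%) called, beside 30.8% of all tested genes. For HKO against WT it was -0.19 and -0.18 on the control diet and 0.02 and 0.02 on the ethanol diet. Per liver, the peroxisomal minus the mitochondrial median, each relative to the WT control mean, was -0.10 to 0.07 in WT control, 0.00 to 0.33 in WT ethanol, -0.03 to 0.04 in HKO control and 0.11 to 0.24 in HKO ethanol livers, beside a pooled SD within groups of 0.1. The HKO ethanol livers were thus above all control livers, while the WT ethanol livers overlapped them. The difference of the medians in WT, 0.08, was 0.21 without WT control liver 1 and 0.16 without WT ethanol liver 2. All of these values include *Eci3* and the peroxisomal thioesterases *Acot3*, *Acot4* and *Acot8*. Over the other 7 peroxisomal members the median was 0.11 on ethanol in WT, with 0 called, and 0.25 in HKO, with 1 called. The latter was not above the mitochondrial 0.30.

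*Ehhadh*, the bifunctional enzyme of peroxisomal oxidation, was at 199, 184 and 137 CPM in WT control and 260, 297 and 144 CPM in WT ethanol livers (log2 FC 0.45, SE 0.275, adjusted *P* = 0.350 by edgeR). *Hsd17b4*, the other bifunctional enzyme of the peroxisome, had log2 FCs of 0.01 on ethanol in WT and 0.18 in HKO (SE 0.117 and 0.111). Of the remaining mitochondrial genes, *Acadvl*, *Acadl*, *Acadm*, *Hadha*, *Hadhb*, *Eci1*, *Decr1*, *Acaa2*, *Cpt2*, *Etfa*, *Etfb*, *Etfdh* and *Bdh1*, the enzyme that makes β-hydroxybutyrate, were called in no comparison. *Bdh1* was at 227 to 305 CPM in WT control, 280 to 354 CPM in WT ethanol, 206 to 271 CPM in HKO control and 210 to 261 CPM in HKO ethanol livers.

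**Figure D4:**
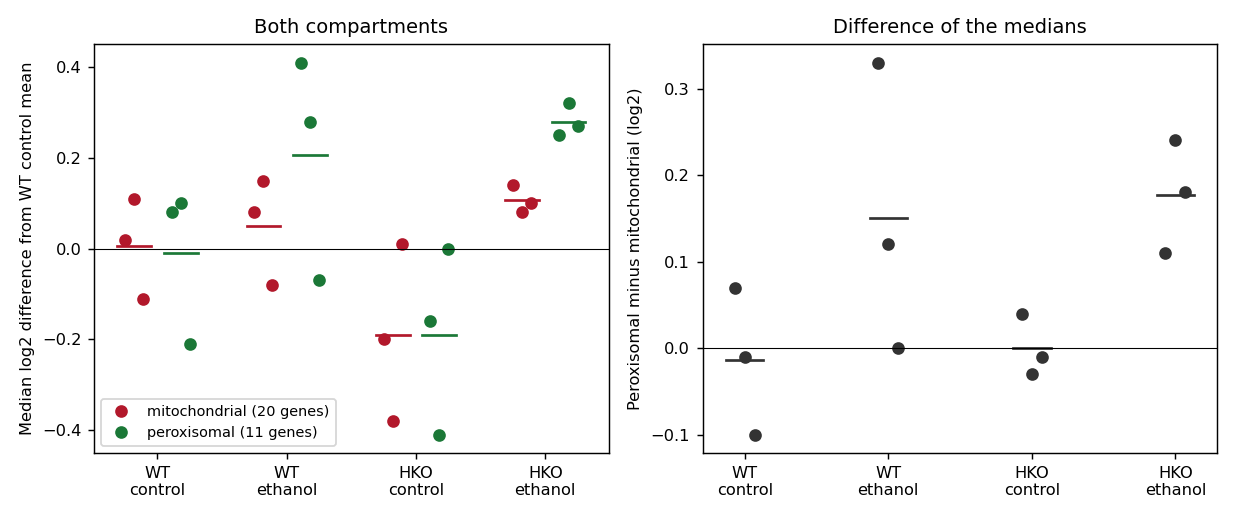
Median log2 difference from the WT control mean over 20 mitochondrial and 11 peroxisomal members in each liver (left, vertical axis in log2), and the peroxisomal minus the mitochondrial median (right); lines are group means of 3 livers. The HKO ethanol livers lie at 0.11 to 0.24 in the right panel and the HKO control livers at -0.03 to 0.04.

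Among 17 other mitochondrial oxidation and ketone genes, 1 was called on ethanol in WT (lower, *Hsd17b10*), beside 9.47% of all tested genes. In HKO against WT 7 were called on the control diet (6 lower), beside 29.6%, and 1 on the ethanol diet, beside 1.1%. On ethanol in HKO 10 were called (7 higher), beside 30.8%. These shares count all tested genes in either direction. The medium-chain acyl-CoA synthetase *Acsm5* was at 115 to 123 CPM in WT control, 53.5 to 58.8 CPM in HKO control and 95.3 to 126 CPM in HKO ethanol livers, and was called lower in HKO on the control diet (adjusted *P* = 0.000912 by edgeR) and higher on ethanol in HKO (log2 FC 0.93, adjusted *P* = 0.00437). *Mlycd*, malonyl-CoA decarboxylase, fell by 0.77 on the log2 scale in HKO on the control diet (adjusted *P* = 0.00459 by edgeR).

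Of 17 tested genes of a further peroxisomal list, 7 were lower and none higher in HKO against WT on the control diet. Over all tested genes 14.2% were lower and 15.4% higher. On ethanol in HKO 7 were higher and none lower, beside 14.9% and 15.9% of all tested genes. *Amacr*, the racemase of branched acyl-CoA, was at 162 to 182 CPM in WT control, 99.1 to 119 CPM in WT ethanol, 76.1 to 83.9 CPM in HKO control and 120 to 124 CPM in HKO ethanol livers (log2 FC -1.09, adjusted *P* = 0.00105 by edgeR for the genotypes on the control diet). *Nudt7*, a peroxisomal CoA diphosphatase, was at 488 to 531 CPM in WT control and 79.7 to 186 CPM in WT ethanol livers (log2 FC -1.99, adjusted *P* = 0.0107 by edgeR). In WT on ethanol 2 were higher and 4 lower, led by *Abcd2* (log2 FC 1.84) and *Nudt7*. Over all tested genes the shares were 4.84% and 4.63%. Of 15 peroxins, the proteins that build peroxisomes, 6 were lower in HKO control livers, beside 14.2% of all tested genes. Among them was *Pex5*, the receptor for the signal in the printed coding ends, at 60.4 to 92.9 CPM against 108 to 111 CPM (log2 FC -0.59, adjusted *P* = 0.04 by edgeR).

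Among 17 regulators, *Ppara* itself was called in no comparison, with 239 to 304 CPM in WT control, 169 to 252 CPM in WT ethanol, 343 to 349 CPM in HKO control and 185 to 308 CPM in HKO ethanol livers. In HKO against WT on the control diet 2 regulators were called higher and 5 lower, beside 15.4% and 14.2% of all tested genes. The largest difference was that of *Lpin1*, a phosphatidate phosphatase and coactivator, at 178 to 448 CPM against 72.2 to 98.5 CPM (log2 FC 1.84, adjusted *P* = 0.00663 by edgeR), and *Rxra*, the partner receptor of PPARα, was also higher (0.45, 0.0286). *Ppargc1a* and *Ppargc1b*, coactivators of oxidative genes, *Esrra*, a nuclear receptor for mitochondrial genes, and *Sirt3*, a mitochondrial deacetylase, were each lower in HKO control than in WT control and each higher on ethanol in HKO. *Esrra* was at 24.3 to 29.6 CPM in WT control, 26.2 to 30.2 CPM in WT ethanol, 10.2 to 13.1 CPM in HKO control and 26.5 to 27.4 CPM in HKO ethanol livers (interaction 1.06, adjusted *P* = 0.0015 by edgeR). *Ppargc1b* had an interaction of 2.61 (adjusted *P* = 0.00322). In WT on ethanol, 3 regulators rose, *Pparg*, *Prkaa2*, a catalytic AMPK subunit, and *Ppargc1a*, by 1.24, 0.62 and 0.60 on the log2 scale. Over all tested genes 4.84% were called higher there.

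On ethanol in WT 9.47% of all tested genes were called. Of 13 genes of fatty acid uptake and activation, *Cd36*, a fatty acid translocase, was the only gene called there. It was at 22.7 to 28.7 CPM on the control diet and 79.7 to 126 CPM on ethanol (log2 FC 1.94, adjusted *P* = 0.00305 by edgeR), and its interaction was -1.48 (adjusted *P* = 0.0165). In HKO against WT on the control diet 2 were higher and 4 lower, beside 15.4% and 14.2% of all tested genes. There *Acsl4*, the synthetase for arachidonate, was at 70.0 to 120 CPM against 24.6 to 36.4 CPM (log2 FC 1.62, adjusted *P* = 0.00313 by edgeR), where *Acsl1* was lower. Of 12 tested further PPARα targets, *Cyp4a14*, a fatty acid ω-hydroxylase, and *Angptl4*, an inhibitor of lipoprotein lipase, were called on ethanol in WT, both higher. Over all tested genes 4.84% were called higher there. These 12 include *Cpt1b*, a mitochondrial oxidation gene that is also among the 17 above. *Cyp4a14* went from 35.7, 66.1 and 5.03 CPM to 490, 975 and 691 CPM (log2 FC 4.35, adjusted *P* = 0.0249 by edgeR). All 12 targets had a positive log2 FC on ethanol in WT (median 0.89), as did 7448 of 14038 tested genes. In HKO against WT on the control diet all 12 were positive too (median 0.87), beside 7009 of 14038 tested genes. In HKO against WT on the control diet, *Angptl4* and the lipid droplet genes *Plin2* and *Cidec* were called higher, by 1.20, 1.07 and 3.93. In HKO on ethanol none was called higher, and *Plin2* and *Cidec* fell by 1.21 and 2.54. *Plin2* was at 325 to 501 CPM in WT control, 709 to 965 CPM in HKO control and 337 to 378 CPM in HKO ethanol livers.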

How the data were processed

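Polyadenylated RNA of 12 livers was sequenced from stranded libraries. The authors deposited read counts per gene, without normalization, with FPKM values (counts per gene length and library size) and TPM values. TPM was used only to check column sums. The submitters' processing notes name Trimmomatic 0.38, HISAT2 2.1.0, StringTie 1.3.4d and build mm10; how shared reads were counted is not given in the sources used here. Groups came from the labels.

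The deposited counts went into edgeR 4.0.16 (R 4.3.3). The filter filterByExpr, given the 4 groups, kept 14038 genes. TMM factors were 0.925 to 1.16. Quasi-likelihood fits used the 6 libraries of each pair, or all 12 for the interaction, and Benjamini-Hochberg adjustment ran over all tested genes. Standard errors are those of the coefficients. The members and gene lists were chosen with earlier results of these data known. Per-liver values are given for called members and for members with large differences. From each further list the named genes were among the 4 called genes with the largest change in a comparison, with *Ppara*. *Rxra* and the hepatocyte markers were named after their values were seen. Some listed genes are not reported here. Pairs of livers differed by a chi-square of 68.0 to 310.3 per gene, above sampling noise. Floors cover counting error only. Scripts were tested on simulated data. Alternatives were DESeq2 1.42.0, upper-quartile scaling, 2 other filters, all 12 libraries in a single fit, a replicate block, limma 3.58.1 on log2(FPKM + 1), also quantile-normalized, and on log2(FPKM + 0.1), each liver left out, and the thresholds of the study, the last chosen after seeing the data. Sequences came from GENCODE vM21 and RefSeq (GRCm38.p6). Figures were drawn with matplotlib.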

Additional observations from a re-analysis of the deposited data

Results flagged for a closer look

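The diet effect differed between WT and *Ahr* HKO livers for 4 members by the interaction term of edgeR fitted with all 12 livers. The interaction was 1.40 for *Acsl1*, 0.56 for *Acads* and 0.68 for *Decr2*, with a higher diet effect in HKO, and -1.49 for *Pdk4*, with a smaller one (log2 scale). Single outlying livers were not tested for in groups of 3.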

How the results depend on the processing

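Of 180 combinations of member and comparison, no called value changed its sign under any alternative run, and 2727 recomputed values kept their side of the threshold, while 72 gained and 75 lost it. The number of members called moved by over 1.5 times as follows. On ethanol in WT, DESeq2 called 10 and the thresholds of the study 8, against 5. For the genotypes on the control diet, quantile-normalized limma called 8 against 5, and leaving out single livers gave 1 to 8, the 8 without HKO control liver 3. For the genotypes on the ethanol diet, DESeq2 called 4, limma on log2(FPKM + 0.1) 2 and the thresholds of the study 1, against 0. On ethanol in HKO, DESeq2 and the fit of all 12 libraries each called 18 against 11, and leaving out single livers gave 4 to 14, the 14 again without HKO control liver 3. For the interaction, limma called 2 on log2(FPKM + 1) and 2 on log2(FPKM + 0.1) against 4, and leaving out single livers gave 2 to 8. The peroxisomal minus mitochondrial median was 0.06 to 0.21 on ethanol in WT and -0.32 to -0.03 for the interaction when single livers were left out, and it was -0.32 to -0.30 without WT ethanol liver 3, HKO control liver 1 or HKO ethanol liver 1. The cause of these shifts was not tested.

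On FPKM without quantile normalization the median log2 FC of all genes was 0.16 on ethanol in WT, -0.21 for the genotypes on ethanol and -0.24 for the interaction with a pseudocount of 0.1, and the share of higher calls moved from 51.1% to 79.4%, from 64.5% to 17.4% and from 50.2% to 23.5% in these comparisons. DESeq2 gave 47.3% higher calls for the genotypes on ethanol. Same-numbered livers did not deviate together (r from -0.0884 to 0.178), so the numbers were not taken as pairs. With the replicate block 6, 4, 0, 8 and 4 members were called, in the order of comparisons above. Low counts limit *Eci3*, with 4 to 188 reads where detected.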
